A study of Mus musculus with 23 samples.

Results

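The genes described here mark the endothelium of the liver, the cells that line its sinusoids, veins and arteries. They form a list of 36 genes, taken by gene name, of the 65535 genes in the table. Their levels were compared in livers of CYP2E1-KO mice and WT mice of both sexes. The KO mice were of the line 129/Sv-Cyp2e1tm1Gonz/J, in which Cyp2e1, a cytochrome P450 gene, carries a germline disruption, and the WT mice were of the separate line 129S1/SvImJ. Effects of the disrupted gene and other differences between the lines cannot be told apart. The labels give 6 Female KO, 5 Female WT, 6 Male KO and 6 Male WT biological replicates, all from bulk liver of untreated mice on normal chow. Mice were 12 to 13 weeks old in the growth protocol and 16 weeks old in another field of the labels. In the table, 33 of the 36 genes had enough counts to be tested.

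Cd34, Wnt9b and Bmp6 were too sparse to judge. Cd34, a sialomucin of vascular endothelium and blood progenitors, had 143 counts over the 23 libraries, with 2 to 12 in each. Wnt9b, a Wnt ligand of the central vein endothelium, had 80 counts, and 18 of 23 libraries held any. Of the 6 Male KO libraries, replicates 3 to 6 held none of its counts. Bmp6, a bone morphogenetic protein through which endothelium tells hepatocytes to make the iron hormone hepcidin, had 99 counts, and 21 of 23 libraries held any. No fold change is given for these genes.

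Sinusoidal endothelial cells have open pores and no continuous basement membrane. They take up waste molecules from blood with scavenger and lectin receptors, a task for which the liver endothelium is known. They also send Wnt ligands, R-spondin and bone morphogenetic proteins to the neighbouring hepatocytes, which set liver zonation and hepcidin production. VEGF and angiopoietin receptors keep the cells alive and in this state, and ETS, GATA and SOX transcription factors are known regulators of endothelial genes. The 36 genes were ordered by role into 10 scavenger and endocytic receptors and sinusoidal markers, 9 genes of a VEGF, angiopoietin and TGF-beta receptor group, 9 junction, surface and vessel wall genes, 5 secreted signals and 3 transcription factors. The receptor group includes Ptprb, a phosphatase. Several of them, among them Mrc1, Lyve1, Fcgr2b and Maf, are also made by macrophages, and Aqp1 is also made by bile duct cells.

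The promoters of 4 of these genes are shown because Pear1, Elk3 and Clec4g were among the genes with the smallest p-values in Female KO against Female WT livers, and Kdr, the main VEGF receptor gene, was among those with both sexes averaged. Each window runs from 250 bases before to 50 bases after the gene's start, in RefSeq on GRCm38.p6. Pear1 lies at chr3:87768904-87769203, Elk3 at chr10:93311110-93311409, Clec4g at chr8:3720602-3720901 and Kdr at chr5:75978406-75978705, all on the minus strand. Capitals mark AGGAAG or its reverse complement CTTCCT, the letters searched for ETS factors; 2 matches in Clec4g overlap.
Pear1: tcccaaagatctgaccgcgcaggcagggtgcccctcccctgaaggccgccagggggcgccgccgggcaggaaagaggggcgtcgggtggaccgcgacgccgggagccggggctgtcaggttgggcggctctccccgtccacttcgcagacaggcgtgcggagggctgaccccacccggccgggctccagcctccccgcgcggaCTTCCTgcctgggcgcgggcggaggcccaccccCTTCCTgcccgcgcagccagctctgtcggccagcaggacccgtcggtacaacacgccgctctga
Elk3: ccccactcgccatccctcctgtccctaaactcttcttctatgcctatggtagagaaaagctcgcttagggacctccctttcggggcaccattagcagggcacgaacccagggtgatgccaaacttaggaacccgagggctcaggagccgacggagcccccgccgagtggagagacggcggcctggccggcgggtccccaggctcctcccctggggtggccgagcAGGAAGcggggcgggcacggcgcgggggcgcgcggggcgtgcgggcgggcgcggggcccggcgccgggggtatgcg
Clec4g: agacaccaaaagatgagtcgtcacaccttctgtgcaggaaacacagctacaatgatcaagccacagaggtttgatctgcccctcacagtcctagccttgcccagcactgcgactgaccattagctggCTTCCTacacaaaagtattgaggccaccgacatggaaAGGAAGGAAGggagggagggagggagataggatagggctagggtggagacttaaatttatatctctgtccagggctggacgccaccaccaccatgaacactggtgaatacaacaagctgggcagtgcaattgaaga
Kdr: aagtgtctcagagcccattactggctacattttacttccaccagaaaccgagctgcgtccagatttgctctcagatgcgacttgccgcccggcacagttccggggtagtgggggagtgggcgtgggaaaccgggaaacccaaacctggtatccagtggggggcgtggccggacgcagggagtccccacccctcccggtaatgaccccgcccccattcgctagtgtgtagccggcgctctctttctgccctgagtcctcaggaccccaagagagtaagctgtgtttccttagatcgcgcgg

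A promoter was found for 23 of the 36 genes, and Egfl7 had several, which made 25 windows. AGGAAG stood on either strand in 16 of these 25 windows (64.0%), against 35.4% of 32851 mouse promoters of the same length. Kdr, Nrp2, Fcgr2b, Tek, Flt4, Wnt2, Wnt9b and Bmp6 had no match. AGATAA, searched for GATA factors, stood in 4.0% of the 25 windows, against 11.2% of all promoters. ACAAAG, searched for SOX factors, stood in 12.0% of them, against 18.7% of all promoters. A match is only a run of letters in this window and was not tied to any change in expression.

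The libraries held 4658677 counts in the median, the shallowest being Male KO replicate 3 with 1538889 counts and the deepest Male WT replicate 3 with 9874733. Cyp2e1 itself averaged 26.3 ± 7.29 CPM in Female KO and 398 ± 63.4 CPM in Female WT livers, and 32.4 ± 13.1 CPM in Male KO and 476 ± 54.0 CPM in Male WT livers (SD, n = 6, 5, 6 and 6), and no KO library reached the WT range. Hepatocyte markers, 14 genes such as Alb, had a median log2 fold change of -0.02 in Female KO against Female WT livers and of -0.05 in Male KO against Male WT livers. The endothelial list was detected in every library, with a summed level of its 36 genes between 339.2 and 973.4 CPM.

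In Female KO livers most endothelial genes lay below Female WT livers, but only 1 passed the test across all genes. Female WT was also the highest of the 4 groups. The summed deposited CPM of the 36 genes averaged 667 in Female KO, 914 in Female WT, 691 in Male KO and 729 in Male WT livers. Of the 33 tested genes, 28 had a negative log2 fold change and 5 a positive one, and their median was -0.43, against 0.01 over all 11370 genes tested, of which 48.3% were negative. Pear1 was called lower at an adjusted p under 0.05 in edgeR's quasi-likelihood test with Benjamini-Hochberg adjustment over all genes tested, and none was called higher. Of all genes, 0.114% were called lower and 0.0792% higher, 0.193% in all. At an unadjusted p under 0.05, 17 of the 33 genes were lower and 0 were higher, where 4.29% of all genes were lower and 4.55% higher. Only Pear1 and Elk3 had libraries of both groups that did not overlap, both lower in Female KO, as did 0.616% of all genes. These are bulk livers, so fewer endothelial cells and less RNA per endothelial cell cannot be told apart.

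**Figure D1:**
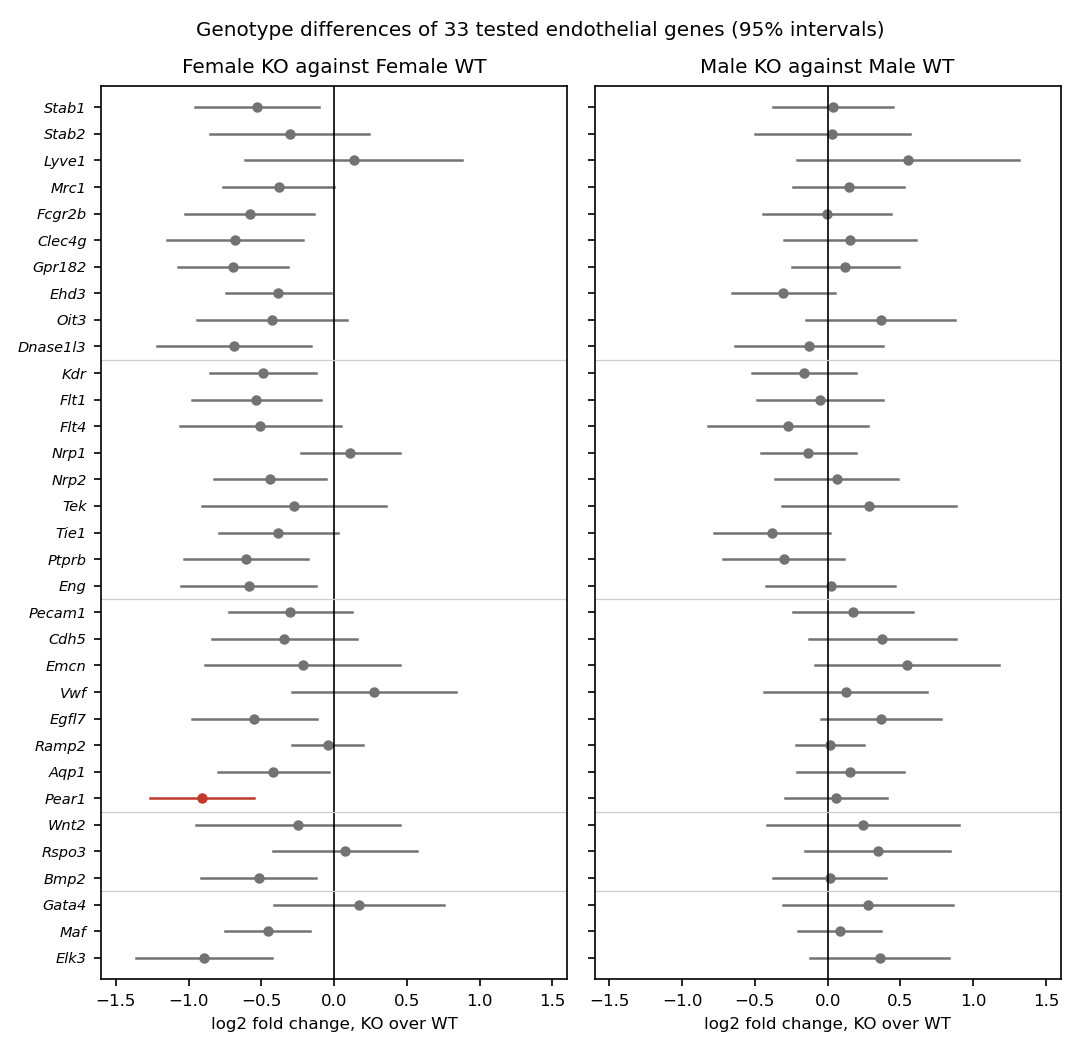
Log2 fold change of KO over WT, on the horizontal axis, for the 33 tested endothelial genes in females (left) and males (right). Points are edgeR estimates, lines their 95% intervals, grey horizontal lines divide the role groups, and Pear1 in females (red, -0.91) is the only gene called at an adjusted p under 0.05. In females 28 points lie below 0, and in males 9 do.

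Pear1 encodes a receptor of platelets and endothelium with EGF-like repeats. Its gene, ENSMUSG00000028073, lies on chromosome 3. Female KO replicates 1 to 6 had 4.14, 4.00, 3.40, 2.30, 3.99 and 3.90 CPM of Pear1, and Female WT replicates 1 to 5 had 8.35, 6.87, 5.80, 7.96 and 6.23 CPM. All 6 Female KO libraries lay below the lowest Female WT library. The means were 3.62 ± 0.695 CPM in Female KO and 7.04 ± 1.1 CPM in Female WT (SD, n = 6 and 5), a log2 fold change of -0.91 (SE 0.17, 95% interval -1.27 to -0.55, edgeR adjusted p = 0.0154). These levels rest on 10 to 21 counts per Female KO library and 34 to 45 per Female WT library. Without Female WT replicate 1 the adjusted p was 0.0664, and without Female WT replicate 4 it was 0.0656. A fit of the female groups alone gave an adjusted p of 0.0579, and a fit with the replicate number as a block gave 0.062. Each of these changes ends the call, while the log2 fold change stays between -0.92 and -0.85.

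In males the levels of Pear1 overlapped. Male KO livers had a lowest value of 3.23, a median of 4.49 and a highest of 6.67 CPM, and Male WT livers had 3.35, 5.29 and 6.24 CPM. Their log2 fold change was 0.06 (SE 0.17, interval -0.29 to 0.41). The genotype difference of Pear1 in males, set against that in females, differed by 0.97 on the log2 scale (SE 0.24, interval 0.46 to 1.47), with an unadjusted p of 0.000528 and an edgeR adjusted p of 0.667. The difference between the sexes therefore failed the adjustment, as it did for all genes tested, of which 0 were called by edgeR, limma-voom or DESeq2. At an unadjusted p under 0.05, 5.66% of all genes differed.

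Among the transcription factors, Elk3, a member of the ETS family known as a repressor, showed the second smallest p in females. Female KO livers had a lowest value of 1.61, a median of 4.01 and a highest of 5.45 CPM of Elk3, and Female WT replicates 1 to 5 had 6.38, 9.36, 7.32, 8.49 and 5.87 CPM. The groups did not overlap. Elk3 had a log2 fold change of -0.89 (SE 0.23, interval -1.36 to -0.43), with an edgeR adjusted p of 0.132, which misses the threshold. Maf, a bZIP factor of sinusoidal endothelium and macrophages, had a lowest value of 26.5, a median of 56.3 and a highest of 73.5 CPM in Female KO livers, and 85.4, 83.8, 64.5, 69.9 and 66.5 CPM in Female WT replicates 1 to 5. Only Female KO replicate 1 reached the range of the WT libraries, and Maf had a log2 fold change of -0.45 (SE 0.14, adjusted p = 0.272). Gata4, known in mice to keep the sinusoidal state, had 6.11 ± 2.44 CPM in Female KO and 5.57 ± 1.75 CPM in Female WT livers, a log2 fold change of 0.17 (SE 0.28, interval -0.41 to 0.75).

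The scavenger and endocytic receptors and sinusoidal markers were negative for 9 of 10 genes in females, with a median log2 fold change of -0.48. None was called, and 6 were lower at an unadjusted p under 0.05, where 4.29% of all genes were. Gpr182, an atypical chemokine receptor of sinusoidal endothelium, had a lowest value of 8.76, a median of 19.9 and a highest of 26.4 CPM in Female KO livers, and 28.2, 33.3, 25.9, 30.6 and 37.2 CPM in Female WT replicates 1 to 5. Only Female KO replicate 1 reached the range of the WT libraries. Its log2 fold change was -0.69 (SE 0.18, interval -1.07 to -0.32, edgeR adjusted p = 0.155). Clec4g encodes LSECtin, a lectin of sinusoidal endothelium. Its levels in Female KO replicates 1 to 6 were 25.1, 27.6, 7.96, 6.22, 18.2 and 14.5 CPM, and in Female WT replicates 1 to 5 they were 27.0, 29.5, 28.1, 26.5 and 23.7 CPM. Female KO replicates 1 and 2 lay within the range of the WT libraries, and the other 4 lay below it. Clec4g had a log2 fold change of -0.68 (SE 0.23, interval -1.15 to -0.21, adjusted p = 0.319).

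Dnase1l3, a secreted nuclease that digests chromatin, showed a similar split between libraries. Female KO replicates 1 to 6 had 37.7, 35.4, 9.13, 8.07, 26.6 and 20.1 CPM of Dnase1l3, and Female WT replicates 1 to 5 had 37.8, 41.0, 36.2, 37.0 and 34.1 CPM. Replicates 3 and 4 of Female KO were the lowest, and replicates 1 and 2 lay within the WT range. For Dnase1l3 the estimate was a log2 fold change of -0.69 (SE 0.26, interval -1.22 to -0.16, adjusted p = 0.389). Stab1, a scavenger receptor, averaged 29.8 ± 13.3 CPM in Female KO and 43.5 ± 4.2 CPM in Female WT livers, with a log2 fold change of -0.53 (SE 0.21). Its relative Stab2, which clears hyaluronan, had a log2 fold change of -0.31 (interval -0.85 to 0.24). Fcgr2b, the inhibitory Fc receptor, had a log2 fold change of -0.58 and Ehd3, an ATPase of endocytic recycling, one of -0.38. Mrc1, the mannose receptor, and Oit3 lay at -0.38 and -0.43 with intervals that reach 0. Lyve1, another hyaluronan receptor, was the exception at 0.13, with a wide interval of -0.61 to 0.88.

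In the VEGF, angiopoietin and TGF-beta receptor group, 8 of 9 genes were negative in females, with a median of -0.49. None was called, and 5 were lower at an unadjusted p under 0.05, where 4.29% of all genes were. Ptprb, the endothelial phosphatase that acts on the angiopoietin receptor and on VE-cadherin, had a lowest value of 23.5, a median of 64.0 and a highest of 85.2 CPM in Female KO livers, and 107.0, 96.6, 82.5, 92.2 and 101.2 CPM in Female WT replicates 1 to 5. Only the highest Female KO library reached the WT range, and Ptprb had a log2 fold change of -0.60 (SE 0.21, interval -1.03 to -0.18, adjusted p = 0.333). Kdr, the main VEGF-A receptor, averaged 26.6 ± 10.9 CPM in Female KO and 37.7 ± 3.3 CPM in Female WT livers, with a log2 fold change of -0.49 (SE 0.18, adjusted p = 0.376). Flt1, which binds VEGF-A as a decoy, lay at -0.53 and Flt4, the VEGF-C receptor, at -0.51. Eng, a co-receptor for BMP9 and TGF-beta, had a log2 fold change of -0.59, and the semaphorin and VEGF co-receptor Nrp2 had one of -0.44. Nrp1, its relative, was at 0.11 (interval -0.23 to 0.45). Tek, the angiopoietin receptor, and Tie1, its partner, lay at -0.28 and -0.38 with intervals that reach 0.

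Of the 8 tested junction, surface and vessel wall genes, Pear1 included, 7 were negative in females with a median of -0.32. At an unadjusted p under 0.05, 3 were lower, namely Pear1, Egfl7 and Aqp1, where 4.29% of all genes were. Egfl7, which encodes a secreted vessel wall protein, had a log2 fold change of -0.55 (SE 0.21, adjusted p = 0.405), and the water channel gene Aqp1 had one of -0.42 (SE 0.18). The junction genes Cdh5, which encodes VE-cadherin, and Pecam1 lay at -0.34 and -0.30, and Emcn, which encodes the sialomucin endomucin, at -0.22, all with intervals that reach 0. Ramp2, a partner of the adrenomedullin receptor, had 46.7 ± 7.4 CPM in Female KO and 49.2 ± 2.5 CPM in Female WT livers, a log2 fold change of -0.04 with a narrow interval of -0.29 to 0.20. Vwf, which encodes von Willebrand factor of larger vessels, was at 0.28 (interval -0.29 to 0.84).

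Of the 3 tested signals to hepatocytes, Bmp2, an inducer of hepcidin, had 12.8 ± 5.7 CPM in Female KO and 18.6 ± 2.1 CPM in Female WT livers, a log2 fold change of -0.52 (SE 0.19, adjusted p = 0.389). Wnt2, a ligand of central endothelium, lay at -0.25 (interval -0.95 to 0.46) on 4 or more counts per Female KO library. Rspo3, the R-spondin that amplifies Wnt signals around the central vein, lay at 0.08 (interval -0.42 to 0.57). Genes of hepatocytes that respond to these signals were also examined. Of 16 tested genes of the Wnt and R-spondin list, such as the glutamine synthetase gene Glul, 13 were negative in females with a median of -0.06, and 0 were called. Of 20 tested genes from BMP signalling to hepcidin, 12 were positive in females with a median of 0.04, and 0 were called. Id3, a direct BMP target, had the smallest p of that list with both sexes averaged, a log2 fold change of 0.71 (SE 0.18, edgeR adjusted p = 0.0808), which misses the threshold.

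The Female KO libraries differed more from each other than the Female WT libraries did. The summed level of the 36 genes was 955.4, 885.9, 543.8, 339.2, 681.2 and 599.5 CPM in Female KO replicates 1 to 6 and 973.4, 968.0, 822.9, 905.9 and 898.1 CPM in Female WT replicates 1 to 5. Female KO replicates 1 and 2 lay within the WT range and the other 4 lay below it. Set against the mean of the Female WT libraries, the median deviation of the 33 genes was -1.30 on the log2 scale in Female KO replicate 4, where 31 genes were below that mean, and -0.83 in replicate 3, where 28 were. In replicates 5 and 6 it was -0.35 and -0.60, and in replicates 1 and 2 it was 0.04 and -0.07. The median of all genes tested lay between -0.01 and 0.02 in these 6 libraries. These values are TMM-scaled, and that scaling itself holds the bulk of genes near 0, so the all-gene median is no separate check. Without replicate 4, the median log2 fold change of the 33 genes was -0.31 and 13 of them were lower at an unadjusted p under 0.05. Without replicate 1 those values were -0.56 and 21, and over the leave-outs of single female libraries the median stayed between -0.56 and -0.31. Many of the 33 genes shifted together in a library, such as replicate 4, so counts at an unadjusted p are not counts of independent genes. The share of all genes in these refits is not given here.

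**Figure D2:**
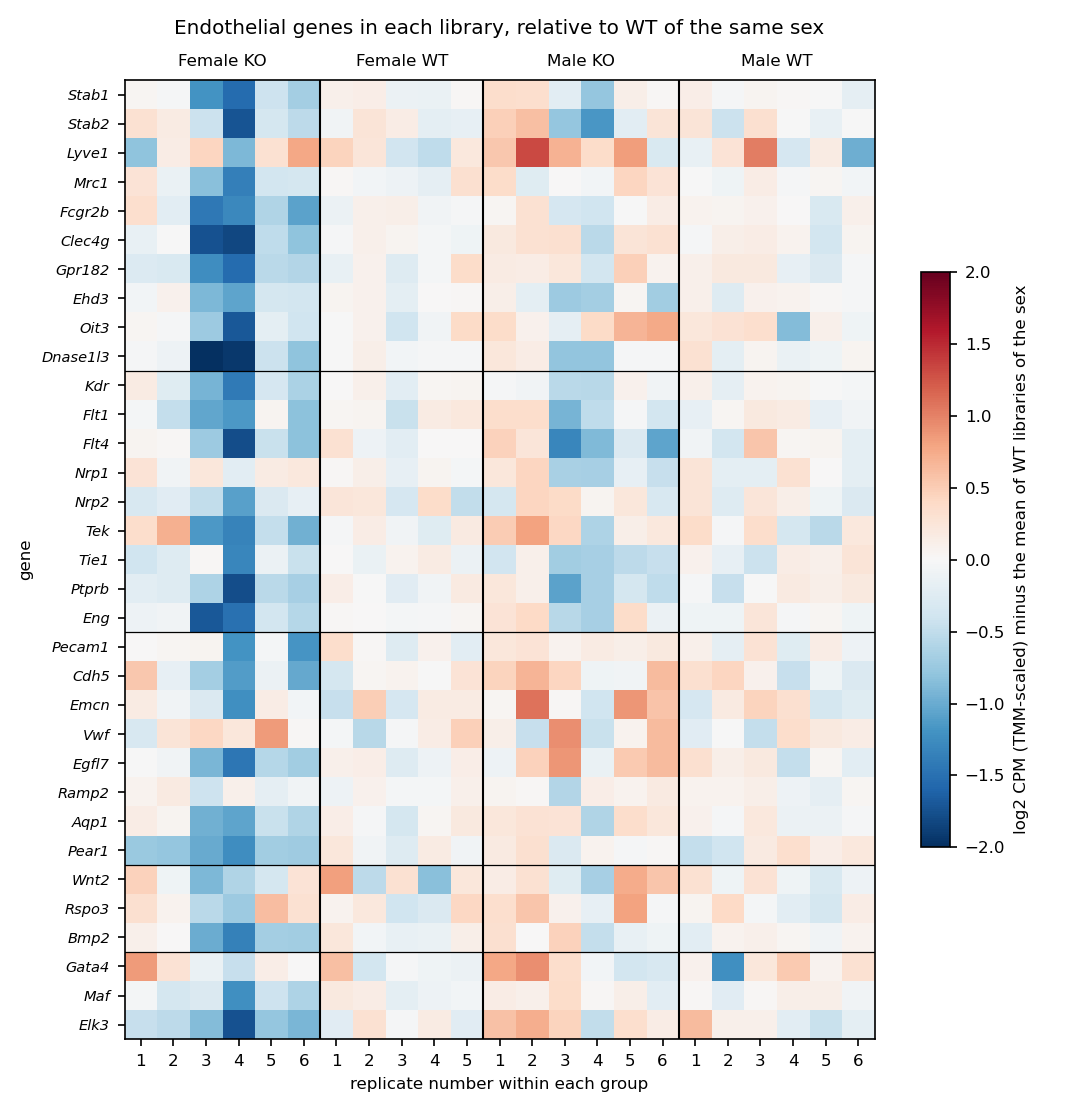
Level of each of the 33 tested endothelial genes (rows, by role) in each of the 23 libraries (columns, by group and replicate), as log2 CPM after TMM scaling minus the mean of the WT libraries of the same sex. Blue is lower and red higher. Female KO replicates 3 and 4 are blue for 28 and 31 of the 33 genes, and Male KO replicate 4 for 26.

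The spread can be stated per gene. The SD of log2 CPM was larger in Female KO than in Female WT for 31 of the 33 genes, with a median SD of 0.54 in Female KO and 0.19 in Female WT. Over all genes tested it was larger in Female KO for 66.1%, with medians of 0.31 in Female KO and 0.24 in Female WT. Without Female KO replicate 4 it was larger for 28 of the 33 genes, with a median of 0.41, and for 55.3% of all genes, with a median of 0.26. In males it was larger in Male KO for 27 of the 33 genes, with medians of 0.39 in Male KO and 0.24 in Male WT. Over all genes tested it was larger in Male KO for 82.9%, with similar medians of 0.38 in Male KO and 0.23 in Male WT. In the female group, replicate 4 held the lowest level of its group for 27 of the 33 genes, where it did for 29.3% of all genes.

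In males no endothelial gene passed the test. Of the 33 genes, 24 had a positive log2 fold change in Male KO against Male WT livers and 9 a negative one, with a median of 0.08, against 0.04 over all genes. None was called in either direction, where 0.132% of all genes were, and 0 had an unadjusted p under 0.05, where 13.1% of all genes did. Across the alternatives and the leave-outs of single male libraries, 0 were called. The median was 0.18 without Male KO replicate 4, with 3 genes higher at an unadjusted p under 0.05, and 0.03 without Male WT replicate 2. With no filter on low counts it was 0.02, with 3 genes lower at that level. The 6 genes with the smallest p were Tie1, Egfl7, Ehd3, Emcn, Elk3 and Cdh5, and their adjusted p-values in edgeR lay between 0.410 and 0.499. Tie1 had a lowest value of 3.23, a median of 3.94 and a highest of 7.67 CPM in Male KO livers, and 4.73, 6.95 and 7.51 CPM in Male WT livers, with a log2 fold change of -0.38 (SE 0.19). Ehd3 had 26.5, 38.4 and 58.2 CPM in Male KO livers and 41.7, 54.7 and 57.7 CPM in Male WT livers, a log2 fold change of -0.30 (SE 0.17). The groups overlapped for both genes.

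The other 4 of these genes were higher in Male KO by estimate, with overlapping groups. Egfl7 averaged 20.7 ± 5.0 CPM in Male KO and 16.7 ± 3.45 CPM in Male WT livers (log2 fold change 0.37, SE 0.20). Emcn averaged 2.12 ± 1.11 CPM in Male KO and 1.55 ± 0.49 CPM in Male WT livers (0.54, SE 0.31), on 2 to 24 counts per Male KO library. Elk3 averaged 4.74 ± 1.74 CPM in Male KO and 3.97 ± 1.30 CPM in Male WT livers (0.36, SE 0.23). Cdh5 averaged 6.99 ± 2.14 CPM in Male KO and 5.70 ± 1.43 CPM in Male WT livers (0.38, SE 0.25). By role, all 8 tested junction, surface and vessel wall genes were positive with a median of 0.16. In the VEGF, angiopoietin and TGF-beta receptor group, 6 of the 9 genes were negative with a median of -0.13. The summed level of the 36 genes was 858.5, 944.7, 539.6, 486.3, 683.0 and 636.6 CPM in Male KO replicates 1 to 6 and 791.1, 643.0, 801.3, 746.5, 699.7 and 691.4 CPM in Male WT replicates 1 to 6. In these deposited CPM, Male KO replicates 1 and 2 lay above the Male WT range, replicate 5 within it, and the other 3 below it. After TMM scaling, the median deviation of the 33 genes was set against the Male WT mean. It was 0.23, 0.30, 0.01, -0.48, 0.11 and 0.03 on the log2 scale in Male KO replicates 1 to 6. Male WT libraries had -0.05 to 0.16, so on that scale only Male KO replicate 4 lay below them, with 26 genes below the mean.

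Averaged over the sexes, 26 of the 33 genes were negative with a median of -0.19, and 0 were called, where 0.431% of all genes were. At an unadjusted p under 0.05, 7 were lower and 0 higher, where 6.73% of all genes were lower and 8.87% higher. The count of 7 depends on the fit: it was 14 with limma-voom, 15 with no filter on low counts and 13 with the replicate block. It was 15 without Female KO replicate 1, 13 without Female KO replicate 2 and 11 without Male KO replicate 2. The 6 with the smallest p were Pear1, Ptprb, Ehd3, Tie1, Kdr and Dnase1l3, with log2 fold changes of -0.42, -0.45, -0.34, -0.38, -0.32 and -0.41 and edgeR adjusted p-values between 0.104 and 0.273. For Ptprb, Ehd3, Tie1, Kdr and Dnase1l3 the estimate was negative in each sex. The test of the sex difference itself gave a positive value, meaning a KO against WT difference that was higher in males than in females, for 30 of the 33 genes, with a median of 0.53, against 0.03 over all genes. None was called, and 9 had an unadjusted p under 0.05, all positive, where 3.47% of all genes were positive at that level. The count of 9 was 14 with limma-voom or with no filter, 16 without Female KO replicate 1, 15 without Female KO replicate 2, 14 without Male KO replicate 4 and 6 without Female KO replicate 3 or 4. For Elk3 the difference was 1.25 (SE 0.32, interval 0.58 to 1.92, adjusted p = 0.685).

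**Figure D3:**
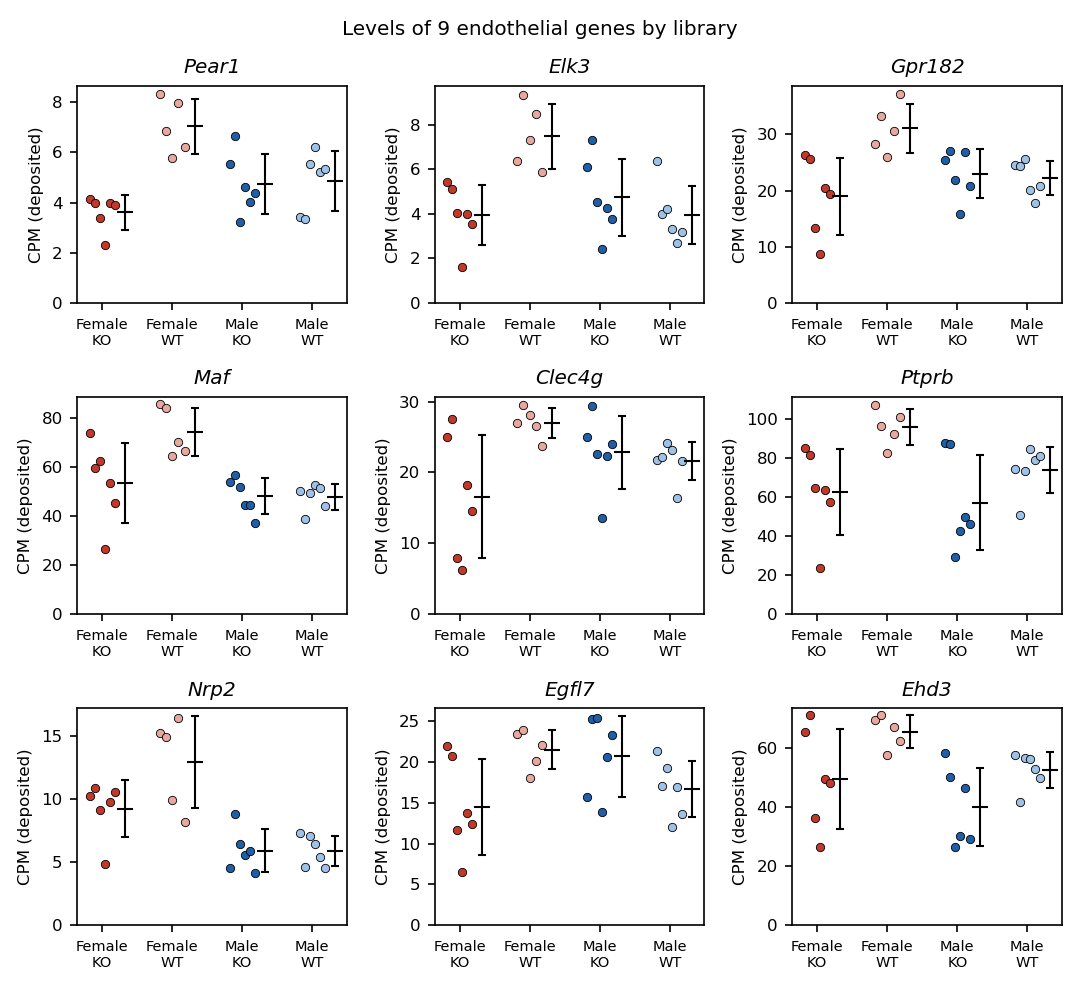
Deposited CPM, on the vertical axis, of 9 endothelial genes in each library of the 4 groups. Circles are libraries, and the bar and whiskers beside them are the mean and SD of the group (n = 6 Female KO, 5 Female WT, 6 Male KO and 6 Male WT). Pear1 and Elk3 have no overlap between Female KO and Female WT, and all 9 overlap between Male KO and Male WT.

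Between the sexes, 3 of the 33 tested endothelial genes were called in WT livers, where 5.61% of all genes were. In KO livers 1 of the 33 was called, where 7.44% of all genes were. In Male WT against Female WT livers, 27 of the 33 genes were negative with a median of -0.22, against -0.02 over all genes. Nrp2, Maf and Elk3 were called lower and 0 were called higher, where 3.25% of all genes were called lower and 2.36% higher. Nrp2, ENSMUSG00000025969 on chromosome 1, had a lowest value of 4.51, a median of 5.94 and a highest of 7.27 CPM in Male WT livers, and 15.2, 14.9, 9.91, 16.5 and 8.18 CPM in Female WT replicates 1 to 5. The groups did not overlap, and Nrp2 was 2.02-fold lower in Male WT livers (log2 fold change -1.02, SE 0.19, edgeR adjusted p = 0.000677). Maf averaged 47.7 ± 5.3 CPM in Male WT and 74.0 ± 9.9 CPM in Female WT livers, without overlap (log2 fold change -0.53, SE 0.14, adjusted p = 0.0222). Elk3 averaged 3.97 ± 1.30 CPM in Male WT and 7.49 ± 1.45 CPM in Female WT livers, with overlap (-0.82, SE 0.22, adjusted p = 0.0236). The groups did not overlap for 6 genes, Nrp2, Maf, Mrc1, Gpr182, Fcgr2b and Bmp2, all lower in Male WT, as did 5.5% of all genes. The call of Elk3 was lost without Female WT replicate 2 or 4 or Male WT replicate 4, 5 or 6, with adjusted p-values of up to 0.0812. That of Maf was lost without Female WT replicate 1 or 2 or Male WT replicate 2 or 6, with up to 0.0730. Nrp2 kept its call without each of the 11 libraries in turn.

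In Male KO against Female KO livers 27 of the 33 genes were positive with a median of 0.26, against 0.01 over all genes. That median was 0.39 without Female KO replicate 1, 0.17 without Female KO replicate 6 and 0.16 without Male KO replicate 2, and without Female KO replicate 4 the split was 21 positive to 12 negative. Egfl7, ENSMUSG00000026921 on chromosome 2, was called higher, where 3.67% of all genes were called higher, and 0 genes of the list were called lower, where 3.77% of all genes were. It had 15.8, 25.4, 25.5, 13.8, 20.6 and 23.3 CPM in Male KO replicates 1 to 6 and 22.0, 20.8, 11.7, 6.45, 13.7 and 12.4 CPM in Female KO replicates 1 to 6. The groups overlapped, and Egfl7 had a log2 fold change of 0.66 (SE 0.21, interval 0.24 to 1.08, edgeR adjusted p = 0.0486). The call was lost without Male KO replicate 2, 3, 5 or 6 or Female KO replicate 3, 4, 5 or 6, with adjusted p-values of up to 0.117, and in a fit of the KO groups alone, with 0.155. Egfl7 overlaps Agpat2 on the opposite strand, which had 45227 counts in all where Egfl7 had 2077, and whether strand was used in counting is not given in the sources used here, so reads of this pair may not be told apart. The same holds, with fewer counts on the partner, for Elk3 with Cdk17 (284 counts, against 574.5 of Elk3) and Gpr182 with Zbtb39 (276, against 2736). It also holds for Eng with Fpgs (2859.5, against 7125) and Stab1 with Nt5dc2 (1228, against 4153). Ramp2 overlaps Vps25 on the same strand (4435 counts, against 5611 of Ramp2), and its counts were fractional in 52.2% of libraries. Pear1 lay close to the threshold in the same comparison, with 4.74 ± 1.21 CPM in Male KO and 3.62 ± 0.695 CPM in Female KO livers (0.56, SE 0.18, adjusted p = 0.0564). Nrp2 was the member with the lowest estimate, at -0.51 (SE 0.20, adjusted p = 0.111). These sex comparisons use the same libraries as the genotype comparisons above. The Female WT libraries, whose summed endothelial level averaged highest, enter the female genotype comparison, the WT sex comparison and the test of the sex difference.

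Within each sex, endothelial genes outside the list showed like directions without calls, in the same libraries. These further genes were also chosen with earlier results of these data known. Of 35 other endothelial genes, such as the factor VIII gene F8 and the lectin gene Clec1b, 30 were tested. In females 25 of the 30 were negative with a median of -0.29 and 0 were called, and in males 23 were positive with a median of 0.15 and 0 were called. Averaged over the sexes, 16 were negative and 14 positive, with a median of -0.08. Their summed level had a range of 137.3 to 400.6 CPM in Female KO and of 307.7 to 364.4 CPM in Female WT livers. Vcam1, an adhesion receptor for leukocytes, went the other way in females, with 5.64 ± 2.20 CPM in Female KO and 3.58 ± 0.78 CPM in Female WT livers (0.67, SE 0.29, edgeR adjusted p = 0.518). Of 17 other endothelial transcription factors 8 were tested, and 6 were positive in females with a median of 0.10. Fli1, an ETS factor, had a log2 fold change of 0.59 in females and 0.83 in males, and 0.71 over both (SE 0.21, adjusted p = 0.110). Of 9 VEGF and angiopoietin ligand genes 5 were tested, and 4 were negative in females with a median of -0.40, while of 11 Notch pathway genes 5 were tested and all 5 were negative with a median of -0.05. No gene of these lists was called in a genotype comparison.

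Markers of other liver cells also varied between libraries. Of 15 Kupffer cell markers, such as Clec4f and the complement gene C1qa, 13 were tested. In females 12 were negative with a median of -0.18, and in males 13 were positive with a median of 0.61. Over all genes these medians were 0.01 and 0.04. At an unadjusted p under 0.05, 7 of the 13 were higher in males, where 7.92% of all genes were. In either sex, 0 were called. Their summed level ranged over 110.4 to 444.4 CPM in Female KO, 194.7 to 309.8 CPM in Female WT, 166.8 to 494.5 CPM in Male KO and 141.2 to 222.2 CPM in Male WT livers. The lowest value belonged to Female KO replicate 4 and the highest of the females to Female KO replicate 1, which were also the libraries lowest and highest in most endothelial genes of that group. All 15 stellate cell and fibroblast markers were tested, with a median of -0.04 in females and 0.33 in males. Their sum was 247.7 CPM in Female KO replicate 4, against 455.3 to 503.0 CPM in the other Female KO libraries and 399.6 to 522.3 CPM in Female WT. No marker of either list was at 0 in all libraries of a group. The part of these cells in the endothelial values was not tested.

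Levels of 5 erythroid markers, the globin genes and Alas2, divided the libraries within every group, with 10 libraries below and 13 above a gap between 1159 and 2400 summed CPM. The split ran along the replicate number: replicates 1 and 2 were low in all 4 groups, replicates 4 and above were high in all 4, and replicate 3 was low in both female groups and high in both male groups. KO replicates 1 and 2 also had the highest endothelial sums of their group in both sexes. Among the libraries low in erythroid RNA, the 36 endothelial genes summed to 543.8 to 955.4 CPM in Female KO (n = 3) and 822.9 to 973.4 CPM in Female WT (n = 3). Among those high in it they summed to 339.2 to 681.2 CPM in Female KO (n = 3) and 898.1 to 905.9 CPM in Female WT (n = 2). Pear1 had 3.40 to 4.14 CPM in Female KO and 5.80 to 8.35 CPM in Female WT in the low libraries. In the high ones it had 2.30 to 3.99 CPM in Female KO and 6.23 to 7.96 CPM in Female WT. Every Female KO library lay below every Female WT library, so no division of them could overlap, and the split does not test the part of erythroid level. Male KO livers summed to 858.5 to 944.7 CPM (n = 2) where Male WT livers summed to 643.0 to 791.1 CPM (n = 2) in the low libraries. In the high ones the sums were 486.3 to 683.0 CPM in Male KO (n = 4) and 691.4 to 801.3 CPM in Male WT (n = 4). In deposited CPM, the sums in Male KO lay above those in Male WT in the low libraries and below them in the high ones. In the high Male KO libraries, replicates 3 to 6, the TMM-scaled median deviation of the 33 genes was 0.01, -0.48, 0.11 and 0.03. It ran from -0.05 to 0.16 in the high Male WT libraries, so only Male KO replicate 4 lay below them on that scale. Pear1 had 5.52 to 6.67 CPM in Male KO and 3.35 to 3.41 CPM in Male WT in the low libraries, and 3.23 to 4.61 CPM in Male KO and 5.23 to 6.24 CPM in Male WT in the high ones. These turns of direction between the levels were not tested. With erythroid level as a block, an alternative added after the data were seen, Pear1 kept its call and the female median was -0.43, whereas with the replicate number as a block its call was lost (edgeR adjusted p = 0.062).

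**Figure D4:**
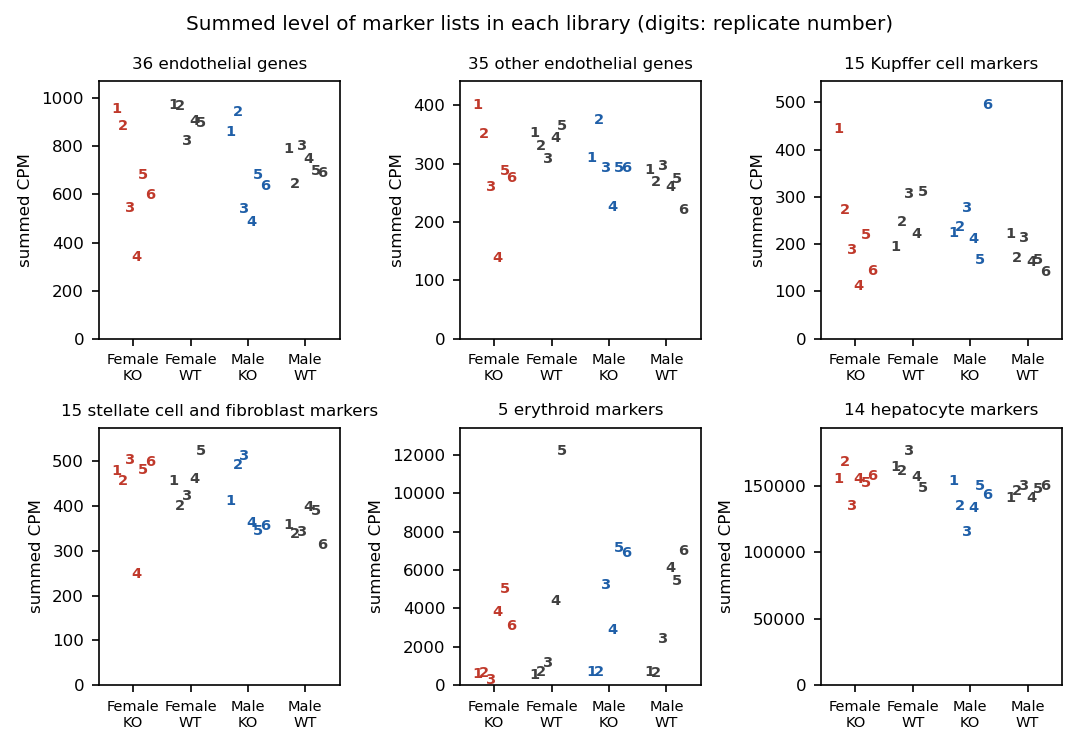
Summed deposited CPM, on the vertical axis, of 6 marker lists in each library, written as its replicate number, in the 4 groups. The sum of the 36 endothelial genes runs from 339.2 to 955.4 CPM in Female KO and from 822.9 to 973.4 CPM in Female WT, and Female KO replicate 4 is the lowest of its group for the endothelial, Kupffer cell and stellate cell lists.

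The other lists were near 0 or rested on few genes. Of 7 cholangiocyte markers 4 were tested, with medians of 0.09 in females and 0.38 in males. Of 5 markers of lymphatic endothelium 2 were tested, Reln and Prox1, which liver cells of other kinds also express, with medians of 0.13 in females and -0.30 in males. Of 5 neutrophil markers 2 were tested, with medians of 0.31 and 0.37, and the only tested gene of 4 platelet and megakaryocyte markers, Itga2b, lay at 0.04 and 0.07. The 5 erythroid markers had medians of -0.72 in females and 0.07 in males. None of 11 B, T and NK cell markers had enough counts. No gene of these lists was called in a genotype comparison.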

How the data were processed

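Polyadenylated RNA of bulk mouse liver was counted at the 3′ ends of transcripts in 23 libraries. The authors deposited 1 table with an estimated count and a CPM, a count scaled to the library total, for each of 65535 genes and each library. Reads were handled by the authors with STAR 2.7.11, featureCounts and Subread 2.1.1, besides fastp 0.24.0, SAMtools 1.22.1, MultiQC 1.32 and FastQC 0.12.1, on build mm39, per the submitters' processing notes. Settings, annotation and the use of strand are not given in the sources used here. Genes with fractional counts held 33.7 to 55% of a library's counts, and how these arose is not given there either. The total behind the deposited CPM exceeded the table's sum by 0.579 to 1.15% of it.

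Deposited CPM served for levels. Deposited counts were rounded to whole numbers and tested in edgeR 4.0.16 (R 4.3.3) with filterByExpr, TMM scaling and the quasi-likelihood test, in 1 fit of the 23 libraries. P-values were Benjamini-Hochberg adjusted over 11370 genes and called under 0.05. SEs come from the F statistic and intervals are 95%. The p-values cover the spread between libraries, which the series describes as biological replicates. No pair of libraries of a group agreed within sampling noise. Alternatives used DESeq2 1.42.0, limma-voom (limma 3.58.1), other scalings, filters, fits and left-out libraries. The test was run on simulated counts drawn independently for each gene. They held no swings shared by the genes of a library, so they cannot show how the test behaves under such swings. Statistics are given in full for members called in any comparison and for the 6 with the smallest p in each genotype comparison; of other lists, up to 4 genes could be named. The members and lists were chosen with earlier results of these data known. Promoters are from RefSeq (GRCm38.p6).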

Additional observations from a re-analysis of the deposited data

Results flagged for a closer look

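In 6 cases 1 library lay far from the others of its group, of 132 combinations of gene and group looked at, where chance would give about 6.6. Fcgr2b was lowest in Male WT replicate 5 at 15.5 CPM, with the nearest library at 19.3 CPM. Clec4g was lowest in the same library at 16.4 CPM, with the nearest at 21.5 CPM. Flt1 was lowest in Female WT replicate 3 at 8.24 CPM, with the nearest at 11.8 CPM. Nrp2 was lowest in Female KO replicate 4 at 4.84 CPM, with the nearest at 9.13 CPM. Ptprb was lowest in Male WT replicate 2 at 50.9 CPM, with the nearest at 73.4 CPM. Gata4 was highest in Female WT replicate 1 at 8.59 CPM, with the nearest at 5.34 CPM.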

How the results depend on the processing

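No median of the tested endothelial genes reversed, nor did the log2 fold change of any gene in a comparison where it was called or, between genotypes, among the 6 with the smallest p; the other estimates, many of them near 0, were not followed one by one. In Female KO against Female WT livers 1 endothelial gene was called, against 2 with no filter on low counts (Gpr182 and Pear1), 0 with only the compared groups in the fit, 0 with the replicate block (Pear1 adjusted p = 0.062) and 0 to 2 when single libraries were left out. Averaged over the sexes 0 were called, against 1 with no filter (Ptprb). In Male KO against Female KO livers 1 was called, against 2 with upper-quartile scaling, 2 with no filter, 0 with only the compared groups in the fit and 0 to 2 when libraries were left out. In Male WT against Female WT livers 3 were called, against 4 with only the compared groups in the fit (Mrc1 added) and 1 to 3 when libraries were left out. The cause of these moves was not tested. The labels do not say what a replicate number shares. It ran with the erythroid level, but deviations of same-numbered libraries were not correlated throughout: of 22 same-numbered pairs 10 correlated over 0.1 (range -0.362 to 0.297), and in 4 the same-numbered library was the best match. Over all genes, DESeq2 called 46 in females, 52 in males and 201 over both sexes, against 22, 15 and 49 in edgeR, and no filter gave 62, 157 and 244. For the difference between the sexes no filter called 25 genes and the replicate block 1, against 0. In males limma-voom called 8, and the erythroid block, added after the data were seen, called 23, and 88 over both sexes. Fits of the compared groups alone called 398 genes between the KO groups, against 846, and 1121 between the WT groups, against 638. Of the tested genes, Emcn and Wnt2 had the fewest counts, 210 and 226 over all libraries.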
